A study of Mus musculus with 10 samples.

Results

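Heat shock proteins and DnaJ cochaperones were followed in the olfactory epithelium of mice carrying 1 of 2 human alleles of the apolipoprotein E gene. The members were the rows of the authors' deposited table with a gene symbol that starts with Hspa, Hspb, Hspd, Hspe, Hsph or Hsp and a digit, or with Dnaja, Dnajb or Dnajc and a digit. The endoplasmic reticulum chaperones Hspa5 and Hsp90b1 and the unrelated Hspbap1 and Hspg2 were left out. This gave 71 of 24421 genes: 2 of the HSP90 family, 3 of HSP110, 10 of HSP70, the HSP60 and HSP10 genes, 8 small heat shock proteins, 4 Dnaja, 13 Dnajb and 28 Dnajc genes, and Hspbp1. Hspbp1, a nucleotide exchange factor for HSP70, and Hspb11, a subunit of the intraflagellar transport machinery, match by symbol and are not heat shock proteins by sequence family.

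The libraries came from 6 Apoe4 mice and 4 Apoe3 mice, all untreated, 6 months old and of the C57BL/6 background, and held poly(A)-enriched RNA of olfactory epithelium. The labels call the samples biological replicates. They do not give the sex of the animals, how the human alleles were introduced or which promoter drives them. The 2 genotypes were compared to find transcripts whose level depends on the allele.

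HSP70 proteins bind unfolded stretches of client proteins in a cycle of ATP binding and hydrolysis. J-domain proteins, of the Dnaja, Dnajb and Dnajc classes, bring clients and trigger hydrolysis, and HSP110 proteins act as nucleotide exchange factors that release the client. HSP90 completes the folding of kinases and receptors, HSP60 and HSP10 form the folding chamber of mitochondria, and small heat shock proteins hold unfolded clients without ATP. Heat shock factor 1 induces many of these genes through heat shock elements, arrays of alternating GAA and TTC units in promoters. Olfactory neurons fold large amounts of odorant receptor, and HSP70 proteins are known to help such receptors reach the surface of cultured cells.

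Promoter stretches show which members carry an exact spelling of such an element near their start. The window of 250 bases before to 50 bases after the annotated start was searched on both strands for 3 alternating units, spelled GAANNTTCNNGAA or TTCNNGAANNTTC. A RefSeq entry (GRCm38.p6) was found for 57 of the 71 members. The array occurred in 4 of them, or 7.02%, against 179 of 27025 genes, or 0.662%. The lines give the stretch around the array 5′ to 3′ on the gene's strand, with the units in capitals.
Hsph1: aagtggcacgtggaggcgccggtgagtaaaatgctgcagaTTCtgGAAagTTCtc
Hspe1: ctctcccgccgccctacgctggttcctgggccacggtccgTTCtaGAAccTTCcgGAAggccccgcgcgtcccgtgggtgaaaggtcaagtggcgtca
Hspd1: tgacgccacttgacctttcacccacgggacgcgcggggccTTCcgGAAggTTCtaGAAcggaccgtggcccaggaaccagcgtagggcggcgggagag
Dnajb6: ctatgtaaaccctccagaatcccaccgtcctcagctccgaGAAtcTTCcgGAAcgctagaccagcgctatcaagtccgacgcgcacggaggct
The Hsph1 stretch lies at chr5:149636286-149636340, minus strand, with its array starting at base 16 of the transcript. Those of Hspe1 (chr1:55088019-55088116, plus strand) and Hspd1 (minus strand) are a single stretch read in opposite directions, since the 2 genes stand head to head and share 1 promoter. Each held 2 overlapping matches of the array, and the shared stretch was counted for both genes in the 7.02%. The Dnajb6 stretch lies at chr5:29735812-29735904, plus strand.

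A shorter search for 2 units, GAANNTTC or TTCNNGAA, also contained in the longer array, matched 16 of the 57 members, or 28.1%, against 16.97% of all genes. Stretches of the same kind are given for 4 of these, the paralogs Hspa1a and Hspa1b and 2 small heat shock proteins whose levels are described further on.
Hspa1b: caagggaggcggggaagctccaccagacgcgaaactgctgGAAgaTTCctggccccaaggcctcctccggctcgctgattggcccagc
Hspa1a: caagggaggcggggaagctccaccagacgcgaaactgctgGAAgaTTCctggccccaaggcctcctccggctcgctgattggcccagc
Hspb8: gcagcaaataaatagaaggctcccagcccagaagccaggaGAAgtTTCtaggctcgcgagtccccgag
Hspb1: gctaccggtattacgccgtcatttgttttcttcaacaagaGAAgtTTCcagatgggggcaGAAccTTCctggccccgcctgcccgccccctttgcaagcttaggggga
The 88 bases given for Hspa1b (chr17:34959295-34959382, minus strand) and Hspa1a (chr17:34972213-34972300, minus strand) were identical, and their whole 300-base windows were alike at 98.7% of positions. The Hspb8 stretch lies at chr5:116422835-116422902, minus strand, with its match starting at base 3 of the transcript, and the Hspb1 stretch at chr5:135887762-135887869, plus strand, with 2 matches. No RefSeq promoter entry was at hand for Hsp90aa1, Hsp90ab1, Hspa8, Hspa9, Hspa13, Hspb2, Dnajc2, Dnajc5, Dnajc5b, Dnajc11, Dnajc12, Dnajc18, Dnajc22 or Dnajc30. A match is a description of letters in a window, and binding was not measured. Only exact spellings were counted, so a member without a match was not shown to lack an element.

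The whole table frames the values that follow. Depth was estimated, and not read from any source, at about 14900000 to 20100000 assigned reads per library. The estimate multiplies a scaling factor per library, inferred from single-read genes, by the summed mean normalized counts. Positive folds are higher in Apoe4. The deposited folds are shrunk towards 0, so each is given with its standard error (SE) on the shrunken log2 scale and understates the fitted change. Levels of single libraries were not used here, so values are means over all 10 libraries or group means implied by that mean and the shrunken fold. Of 16050 genes tested by the authors, 125 had an adjusted p under 0.05, which is 0.779%. The mouse Apoe gene had a log2 fold change of -0.16 (SE 0.10, adjusted p = 0.579 in the authors' deposited table), a value that leaves out any reads of the human alleles that fail to align to the mouse sequence. The 4 Y-linked genes tested had log2 fold changes from -3.72 to -2.80 in the authors' deposited table. Xist stood at 6.41 there, without an adjusted p. A sex-linked difference thus ran with genotype, and the 2 cannot be told apart in any value given here. The test statistic also moved with transcript length across all genes (rank correlation 0.414, Spearman, over genes that are not independent replicates), and members had a median length of 2996 bases against 3346 for all genes tested. Folds with the length trend removed are the deposited folds minus a smooth curve of fold on transcript length. Defining markers of mature olfactory neurons were abundant, with Omp at a mean of 113676.

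Heat shock and DnaJ transcripts were abundant and did not differ between Apoe4 and Apoe3 beyond the threshold. Of the 65 members tested, 0 had an adjusted p under 0.05 by the authors' DESeq2 test, against the 0.779% of all genes. At an unadjusted p under 0.05 there were 10 members, 6 higher and 4 lower in Apoe4, or 15.4% of members against 10.3% of all genes tested (4.54% higher and 5.76% lower). The median log2 fold change over the tested members was 0.03, with 36 above 0 and 29 below, against 0.00 over all genes tested, of which 51.1% lay above 0. Values ran from -0.26 for Dnajc4 to 0.22 for Hsph1 in the authors' deposited table. The smallest adjusted p of any member was 0.174. Given its error, the middle member needed an unshrunken fold of at least 1.26 in either direction to pass, and the range over members was 1.13 to 3.23. Smaller differences would not have passed.

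**Figure D1:**
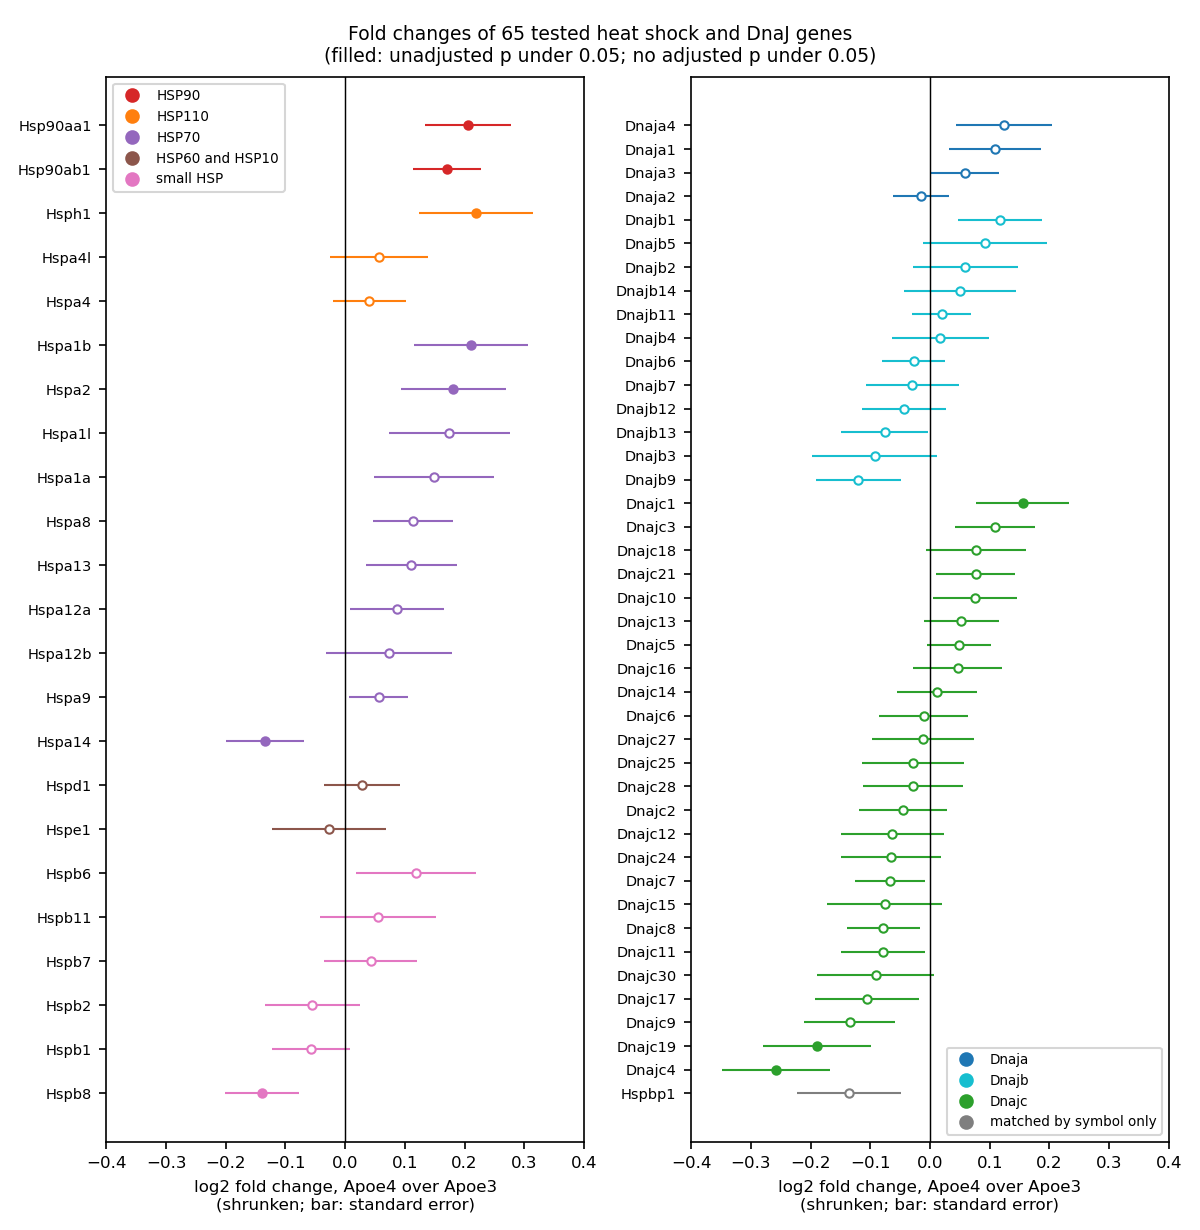
Shrunken log2 fold changes (Apoe4 over Apoe3) with standard errors for the 65 tested members, by family, with filled points for the 10 members at an unadjusted p under 0.05. Both HSP90 genes, all 3 HSP110 genes and 9 of 10 HSP70 genes lie right of 0, and 16 of 25 Dnajc genes lie left of it.

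Of the other 6 members, the authors marked as low and did not test Hspb3, Hspb9, Dnajb8, Dnajc22 and Dnajc5b, whose means were 0.738, 1.97, 0.421, 1.13 and 0.552 normalized counts in the authors' deposited table, and Dnajc5g, which is listed at 0. Hspb9, Dnajb8, Dnajc5b and Dnajc5g are known mainly from testis, and Hspb3 from muscle.

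The plot of fold against mean places the members among all genes tested. Together the members made up 0.912% of the summed mean normalized counts of the table, and Hsp90ab1, Hspa8 and Hsp90aa1 held 47.9% of that share.

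**Figure D2:**
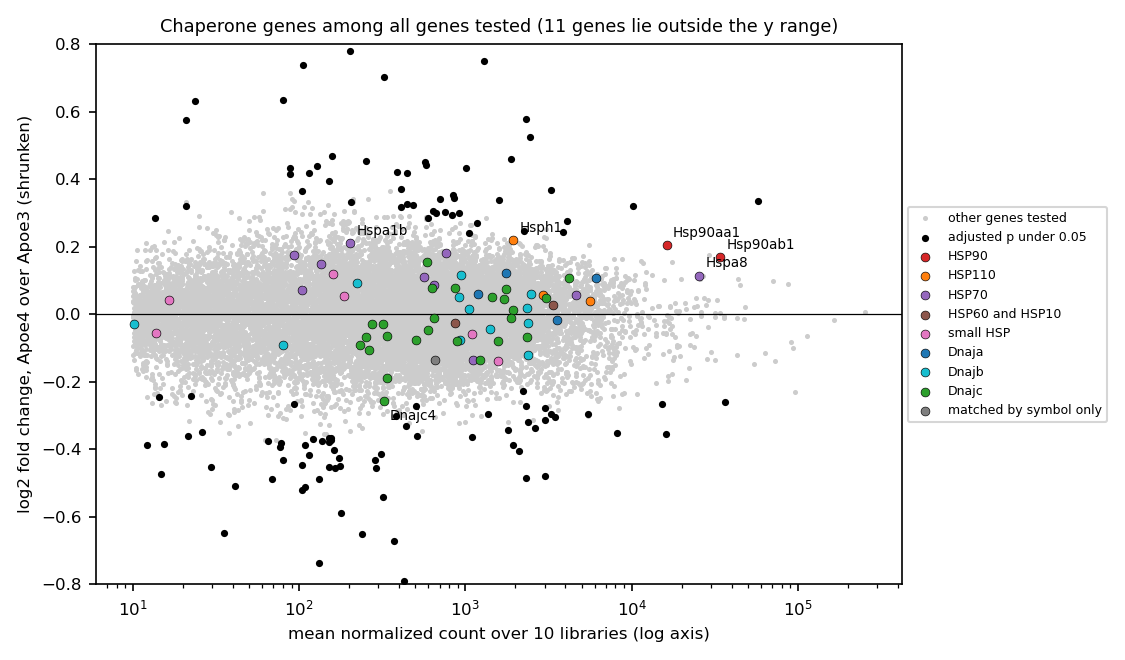
Shrunken log2 fold change (Apoe4 over Apoe3) against mean normalized count (log axis) for all genes tested, with members in colour by family and the 125 genes with an adjusted p under 0.05 in black; 11 genes lie outside the plotted range of 0.8. No member is among the black points, and Hsp90ab1, Hspa8 and Hsp90aa1 have the highest means among the members.

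Levels between genes were compared per kb of the longest annotated transcript. On this scale Hsp90ab1, the constitutive cytosolic HSP90, stood highest at a mean of 13570 normalized counts per kb. Hspa8, the constitutive cytosolic HSP70 that also uncoats clathrin vesicles, followed at 8056, and Hsp90aa1, the more inducible HSP90, at 4968. A step below came the mitochondrial HSP70 Hspa9 at 1518 and its folding partner Hspd1, the HSP60, at 1389 per kb. The general J-domain proteins Dnaja2 and Dnaja1 stood at 1225 and 1086 per kb, the HSP110 gene Hspa4 at 1221 and the small heat shock protein Hspb1 at 1185. The strictly inducible HSP70 genes were low in the authors' counts, with Hspa1b at 72.3 and Hspa1a at 45.6 per kb. Windows of a transcript that occur in other genes could have had their reads split or dropped. The share of such windows was 56.5% for Hspa1a, 49.9% for Hspa1b, 47.5% for Hsp90aa1, 42.7% for Hspb1 and 32.1% for Hspa8. It was 26.9% for Hspd1 and 24.0% for Dnaja1, and 0 for Hsp90ab1, Hspa9, Dnaja2 and Hspa4. Levels and folds of genes with shared windows are uncertain, and by how much was not tested. The lowest tested members were Hspb7, a small heat shock protein of heart and muscle, at 5.91 per kb, and Dnajb7 at 7.36. The median was 302.4 per kb over the tested members and 125.7 over all genes tested. In a bulk tissue, fewer cells of a type and less RNA per cell cannot be told apart.

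**Figure D3:**
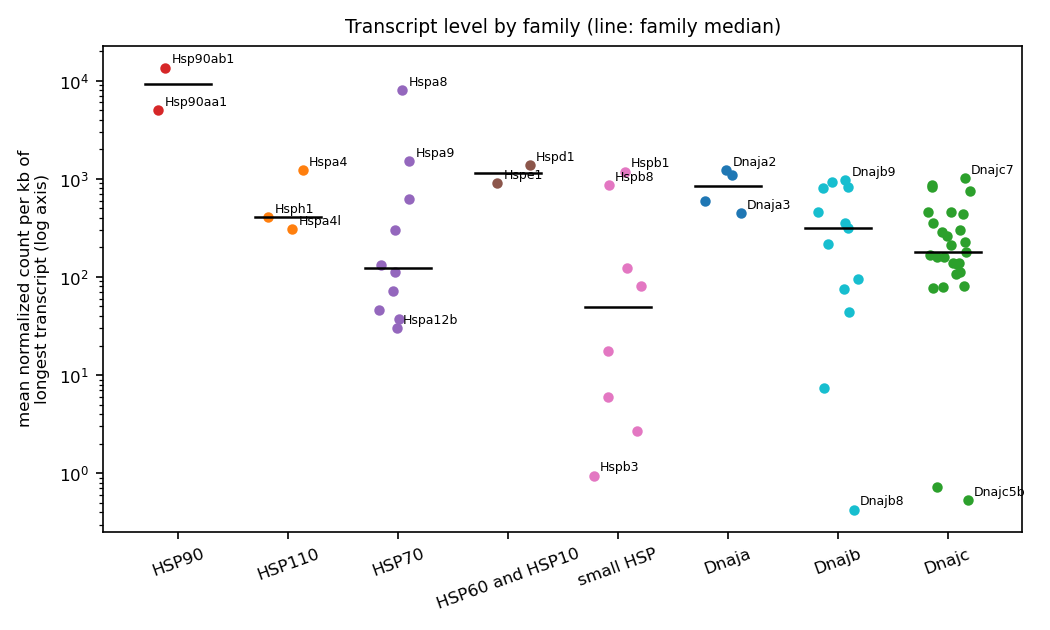
Mean normalized count over the 10 libraries per kb of longest transcript (log axis) for each member with a mean above 0, by family, with a line at the family median. Levels span from 13570 per kb for Hsp90ab1 to under 1 per kb for Hspb3, Dnajb8, Dnajc22 and Dnajc5b, none of which was tested.

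Both HSP90 genes had positive folds. Hsp90ab1 (chromosome 17, 45567775 to 45573271, GRCm38, protein coding) had an implied level of 35789.6 normalized counts in Apoe4 and 31806 in Apoe3. Its log2 fold change was 0.17 (SE 0.06, adjusted p = 0.174 in the authors' deposited table). Undoing the shrinkage gave 0.18 with a 95% interval from 0.06 to 0.31, for the smaller of 2 errors that the shrinkage allows. Hsp90aa1 (chromosome 12, 110690605 to 110702728) had an implied level of 17216 in Apoe4 and 14928 in Apoe3. The authors' deposited table gave it a log2 fold change of 0.21 (SE 0.07, adjusted p = 0.201). Neither passed over all genes tested. Of the 100-base windows of Hsp90aa1 transcripts, 47.5% occur in other genes, mostly annotated pseudogenes, so reads could have been split or dropped in the authors' counting. No window of Hsp90ab1 was shared.

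Among the HSP110 exchange factors, Hsph1, which is induced by heat, had the highest deposited fold of all members, although 5 members lay above it with the length trend removed, where it stood at 0.18. Its implied level was 2053 normalized counts in Apoe4 and 1764 in Apoe3. The log2 fold change of Hsph1 was 0.22 (SE 0.09, adjusted p = 0.389 in the authors' deposited table). Hspa4, the most abundant of the 3, stood at 0.04 (SE 0.06, adjusted p = 0.869) and Hspa4l at 0.06 (SE 0.08, adjusted p = 0.860) in the authors' deposited table. Their values less the length trend were 0.01 and 0.00. None of the 3 passed.

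Of the 10 HSP70 genes, 9 lay above 0, with a median of 0.11, and none passed. Hspa8 had an implied level of 26239 normalized counts in Apoe4 and 24240.3 in Apoe3, and a log2 fold change of 0.11 (SE 0.07, adjusted p = 0.558 in the authors' deposited table). The inducible pair lies side by side on chromosome 17. Hspa1b had an implied level of 214 in Apoe4 and 185 in Apoe3, with a log2 fold change of 0.21 (SE 0.10, adjusted p = 0.419 in the authors' deposited table). Hspa1a stood at 0.15 (SE 0.10, adjusted p = 0.633 in the authors' deposited table). Hspa1a shared 56.5% of its windows and Hspa1b 49.9%, with each other and with the loci Gm20481 and Gm10501, and the neighbouring Hspa1l, best known from testis and at 0.17 (SE 0.10, adjusted p = 0.557 in the authors' deposited table), shared 70.8%. Gm20481 overlaps Hspa1a and Gm10501 overlaps Hspa1l on the other strand. Reads of the 3 genes could have been split or dropped in the authors' counting, so their values are uncertain. Hspa2, a testis-enriched HSP70 also present in brain, was at 0.18 (SE 0.09, adjusted p = 0.461 in the authors' deposited table), while transcripts of 5 testis germ cell markers summed to a mean of 2.04 normalized counts. The exception was Hspa14, part of the ribosome-associated complex that receives new polypeptides, at -0.13 (SE 0.07, adjusted p = 0.462 in the authors' deposited table) or -0.08 with the length trend removed. Hspa9 stood at 0.06 (SE 0.05, adjusted p = 0.736 in the authors' deposited table), with an unshrunken interval from -0.04 to 0.16. Of the remaining HSP70 genes, Hspa13, Hspa12a and Hspa12b lay between 0.07 and 0.11 in the authors' deposited table, and Hspa12a was at 0.04 with the length trend removed.

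Of the mitochondrial folding chamber, Hspd1 stood at 0.03 (SE 0.06, adjusted p = 0.914) and Hspe1, the HSP10 lid, at -0.03 (SE 0.10, adjusted p = 0.948) in the authors' deposited table, although the 2 share the promoter stretch given above. With the length trend removed both stood at 0.05, and the longest transcript of Hspe1 has 964 bases. Hspd1 shared 26.9% of its windows with other annotated loci, among them the pseudogene Hspd1-ps3, and its exons overlap those of Hspe1 on the other strand.

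Small heat shock proteins were split, 3 above and 3 below 0 among the 6 tested, though 5 lay above 0 with the length trend removed. Without Hspb11, the transport subunit, 2 lay above and 3 below 0. Hspb8, a partner of Bag3 in selective autophagy, had an implied level of 1505 normalized counts in Apoe4 and 1658 in Apoe3. Its log2 fold change was -0.14 (SE 0.06, adjusted p = 0.411 in the authors' deposited table), or -0.09 with the length trend removed. Hspb1, the ubiquitous small heat shock protein, was at -0.06 (SE 0.07, adjusted p = 0.816 in the authors' deposited table) but at 0.02 with the length trend removed. Hspb6, of muscle, was at 0.12 (SE 0.10, adjusted p = 0.723 in the authors' deposited table). Hspb2, Hspb7 and Hspb11 lay between -0.05 and 0.05 in the authors' deposited table. The muscle-type members Hspb2 and Hspb7 had means of 13.7 and 16.4 normalized counts, and of 6 skeletal muscle markers 2 were tested, with means of 27.0 and 44.9. Both of those lay below 0, with a median of -0.10, and for the 5 smooth muscle markers the median was 0.07, and none of either list passed. Their part in the muscle-type values was not tested.

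Class A J-domain proteins, the general partners of HSP70, lay above 0 in 3 of 4 cases. Dnaja1 had an implied level of 6291 normalized counts in Apoe4 and 5833 in Apoe3. It stood at 0.11 (SE 0.08, adjusted p = 0.659 in the authors' deposited table), Dnaja4 at 0.12 (SE 0.08, adjusted p = 0.615), the mitochondrial Dnaja3 at 0.06 (SE 0.06, adjusted p = 0.762) and Dnaja2 at -0.02 (SE 0.05, adjusted p = 0.940). Dnaja1 was at 0.06 and Dnaja2 at -0.01 with the length trend removed. Dnaja4 shared 51.0% of its windows with Wdr61, an overlapping gene on the other strand, and the strandedness of the counting is not stated in any source used.

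Class B was evenly divided, with 6 above and 6 below 0, or 5 and 7 with the length trend removed. Dnajb1, the main heat-inducible J-domain protein, had an implied level of 973 normalized counts in Apoe4 and 897 in Apoe3, and stood at 0.12 (SE 0.07, adjusted p = 0.572 in the authors' deposited table). Dnajb9, a J-domain protein of the endoplasmic reticulum induced by unfolded proteins, stood at -0.12 (SE 0.07, adjusted p = 0.564 in the authors' deposited table). Dnajb2, which is enriched in neurons, was the most abundant of the class by mean normalized count and stood at 0.06 (SE 0.09, adjusted p = 0.866 in the authors' deposited table). Dnajb13, a protein of the radial spokes of motile cilia, was at -0.08 (SE 0.07, adjusted p = 0.760 in the authors' deposited table). The 5 tested markers of ciliated respiratory cells had a median of 0.10, each above 0, and none passed, so Dnajb13 did not share their sign. The remaining tested Dnajb genes lay between -0.09, for Dnajb3, and 0.09, for Dnajb5, in the authors' deposited table.

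Class C, the most varied class, leaned the other way, with 9 above and 16 below 0 and a median of -0.03, or 6 above and 19 below with the length trend removed. Dnajc4, a little studied membrane J-domain protein, had the lowest fold of all members. Its implied level was 298 normalized counts in Apoe4 and 357 in Apoe3. The log2 fold change of Dnajc4 was -0.26 (SE 0.09, adjusted p = 0.219 in the authors' deposited table). Its longest transcript has 1074 bases, and with the length trend removed the fold was -0.18. Dnajc19, of the mitochondrial import motor, was at -0.19 (SE 0.09, adjusted p = 0.459 in the authors' deposited table). Dnajc1, of the endoplasmic reticulum membrane, was at 0.16 (SE 0.08, adjusted p = 0.482 in the authors' deposited table). The abundant Dnajc3, an inhibitor of eIF2α kinases that also serves as a luminal cochaperone, stood at 0.11 (SE 0.07, adjusted p = 0.586 in the authors' deposited table), while Dnajc5, the cysteine string protein of synaptic vesicles, stood at 0.05 (SE 0.05, adjusted p = 0.808). Less the length trend, Dnajc3 was at 0.07 and Dnajc5 at -0.01. Dnajc9, which binds histones, was at -0.13 (SE 0.08, adjusted p = 0.542 in the authors' deposited table) or -0.08 with the length trend removed. The remaining tested Dnajc genes lay between -0.11, for Dnajc17, and 0.08, for Dnajc18, in the authors' deposited table. Hspbp1 was at -0.14 (SE 0.09, adjusted p = 0.609 in the authors' deposited table) or -0.08 with the length trend removed.

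Sorted by role, the 14 members listed as heat-inducible had a median log2 fold change of 0.11, with 11 above and 3 below 0. That put 78.6% of the list above 0, against 51.1% of all genes tested. The 14 were Hspa1a, Hspa1b, Hspa8, Hsp90aa1, Hsp90ab1, Hsph1, Hspa4l, Hspb1, Hspb8, Hspd1, Hspe1, Dnaja1, Dnajb1 and Dnajb4. Hsp90ab1 and Hspa8, called constitutive above, are on this list, with log2 fold changes of 0.17 and 0.11. The other 51 tested members had a median of -0.01, with 25 above and 26 below. By the authors' DESeq2 test none of the 14 passed at an adjusted p under 0.05, and 5 had an unadjusted p under 0.05, 4 higher and 1 lower, or 35.7% against 10.3% of all genes tested (4.54% higher and 5.76% lower). Hsp90ab1 was among the 4 higher. The 3 below 0 were Hspb8, Hspb1 and Hspe1. Endoplasmic reticulum members had a median of 0.05, with 9 of 12 above 0, and with the length trend removed the median was 0.01 with 6 of 12 above 0. Mitochondrial members had a median of -0.03, with 3 of 9 above 0. Ribosome, splicing and RNA members had a median of -0.07 with 2 of 7 above 0, and -0.03 with the length trend removed. Vesicle and synapse members had a median of 0.02 over 4 tested genes, Dnajc5, Dnajc6, Dnajc13 and Dnajc27, and -0.03 with the length trend removed. These groups overlap and were chosen with results known, so their counts describe the samples and are no test.

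**Figure D4:**
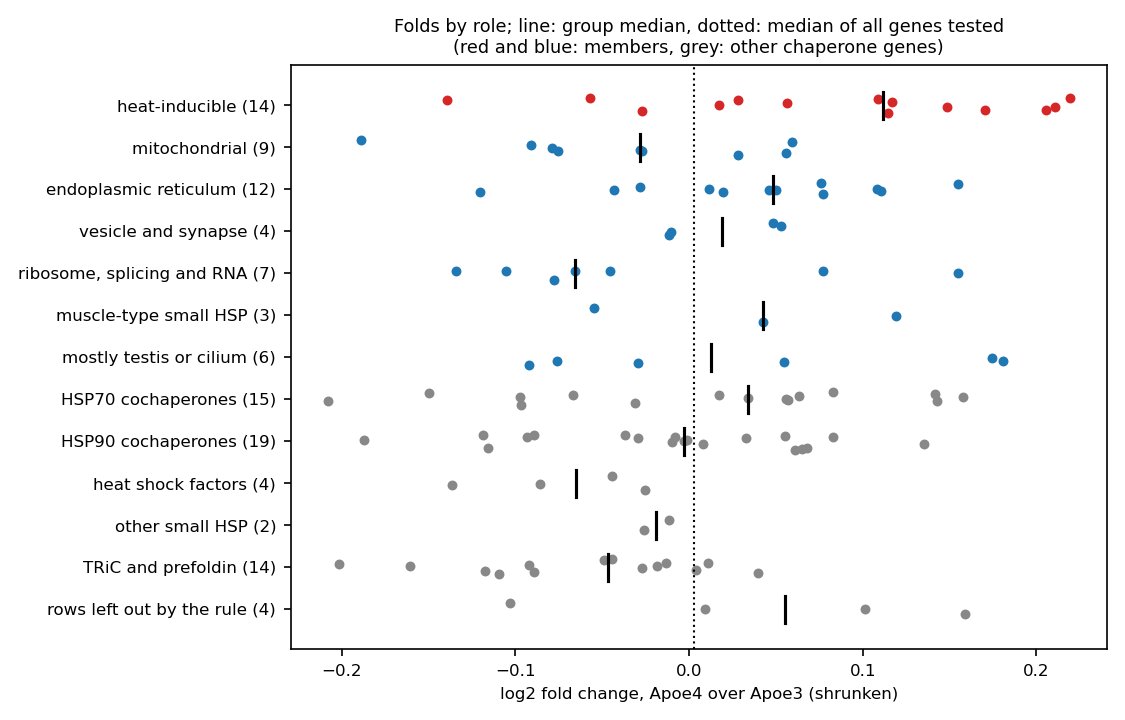
Shrunken log2 fold changes (Apoe4 over Apoe3) by role, with heat-inducible members in red, other member groups in blue and chaperone genes outside the membership in grey; the number of tested genes is in brackets, lines mark group medians and the dotted line the median of all genes tested. The heat-inducible median lies at 0.11 and the TRiC and prefoldin median at -0.05.

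Folds were set beside exact matches to the heat shock element for members with a promoter entry. That set leaves out Hsp90aa1, Hsp90ab1 and Hspa8, and the heat-inducible Dnajb1 counts as having no match. The 14 tested members with 2 units had a median of 0.05, with 9 above 0, and the 39 with an entry and no match a median of 0.01, with 20 above 0. With the length trend removed the medians were 0.06 for members with a match, 10 of 14 above 0, and -0.01 for those without, 18 of 39 above 0. Of the 4 with the longer array, 2 lay above 0 and the median was 0.00, or 3 and 0.05 with the length trend removed, and their folds ran from -0.03 to 0.22 in the authors' deposited table.

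The partners of these chaperones outside the membership did not pass either, in any list. HSP70 cochaperones had a median of 0.03, with 9 of 15 above 0. By the authors' DESeq2 test 4 had an unadjusted p under 0.05, 2 higher and 2 lower. That was 26.7% of the list against 10.3% of all genes tested. Stub1, the ubiquitin ligase that marks HSP70 clients, stood at -0.21 (SE 0.09, adjusted p = 0.348) and Sgta, which handles tail-anchored proteins, at -0.15 (SE 0.06, adjusted p = 0.371) in the authors' deposited table. Stip1, the adaptor that passes clients from HSP70 to HSP90, stood at 0.14 (SE 0.07, adjusted p = 0.453 in the authors' deposited table). HSP90 cochaperones had a median of -0.00, with 8 of 19 above 0, or 10 with the length trend removed. Of these 1, or 5.26%, had an unadjusted p under 0.05 by the same test, and it was lower. Ttc4 stood at -0.19 (SE 0.07, adjusted p = 0.256), Chordc1, itself heat-inducible, at 0.14 (SE 0.08, adjusted p = 0.565) and Fkbp8 at -0.12 (SE 0.08, adjusted p = 0.628) in the authors' deposited table. All 4 tested genes of the heat shock factor list lay below 0, and 3 of them with the length trend removed. Hsf1, the master regulator, stood at -0.09 (SE 0.08, adjusted p = 0.764), Hsbp1, which binds it, at -0.14 (SE 0.08, adjusted p = 0.582) and Hsf4 at -0.04 (SE 0.08, adjusted p = 0.892) in the authors' deposited table. Their mRNA level does not measure the factor's activity.

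The TRiC chamber and its feeder prefoldin, which fold actin and tubulin, had a median of -0.05 with 11 of 14 below 0, or 9 of 14 with the length trend removed. By the authors' DESeq2 test 3 had an unadjusted p under 0.05, all lower. That was 21.4% against 10.3% of all genes tested. Pfdn5 stood at -0.20 (SE 0.09, adjusted p = 0.409), Pfdn1 at -0.16 (SE 0.08, adjusted p = 0.453) and Tcp1 at -0.11 (SE 0.05, adjusted p = 0.464) in the authors' deposited table. Their transcripts were shorter, with a median of 1906 bases, and with that trend removed the median was -0.02. Of the α-crystallins, small heat shock proteins by family, Cryab stood at -0.03 (SE 0.08, adjusted p = 0.940) and Cryaa at -0.01 (SE 0.08, adjusted p = 0.977 in the authors' deposited table), while both lay above 0 with the length trend removed. Of the rows left out, Hsp90b1 stood at 0.16 (SE 0.06, adjusted p = 0.256), Hspa5 at 0.10 (SE 0.07, adjusted p = 0.611) and the matrix protein Hspg2 at -0.10 (SE 0.09, adjusted p = 0.739) in the authors' deposited table.

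The deposited errors also imply a spread between libraries. This spread describes the authors' fit, which can draw a gene towards genes of like mean, and not the observed values of single libraries. Removing the shrinkage from each standard error, and then the counting noise, left a coefficient of variation over both groups, taken as the smaller of 2 solutions. It is therefore smaller than the full spread between libraries, most of all at low means. It was lowest for Dnaja2 at 5.08%, the endoplasmic reticulum cochaperone Dnajb11 at 5.20%, Hspa9 at 5.45% and Dnajb6 at 5.68%. Dnajb6 shared 36.3% of its windows with other annotated loci, so its value is uncertain. Dnajb11 lay at percentile 0.983 of the tested genes with a mean within 2-fold of its own, and Dnaja2 at percentile 1.27. Hsph1 stood at the other end, at 14.03% against a median of 8.47% for genes of like mean, at percentile 96.3. Hspe1, at 13.8%, and the endothelial HSP70 Hspa12b, at 19.7%, lay at percentiles 94.0 and 95.2. Hspa1b at 12.7% and Hspa1a at 13.99% were close to the medians for their means, 13.0% and 14.9%. The larger solution would be 36.0% for Hsph1, 34.7% for Hspa1b and 29.99% for Hspa1a, and the table alone does not decide between them.

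**Figure D5:**
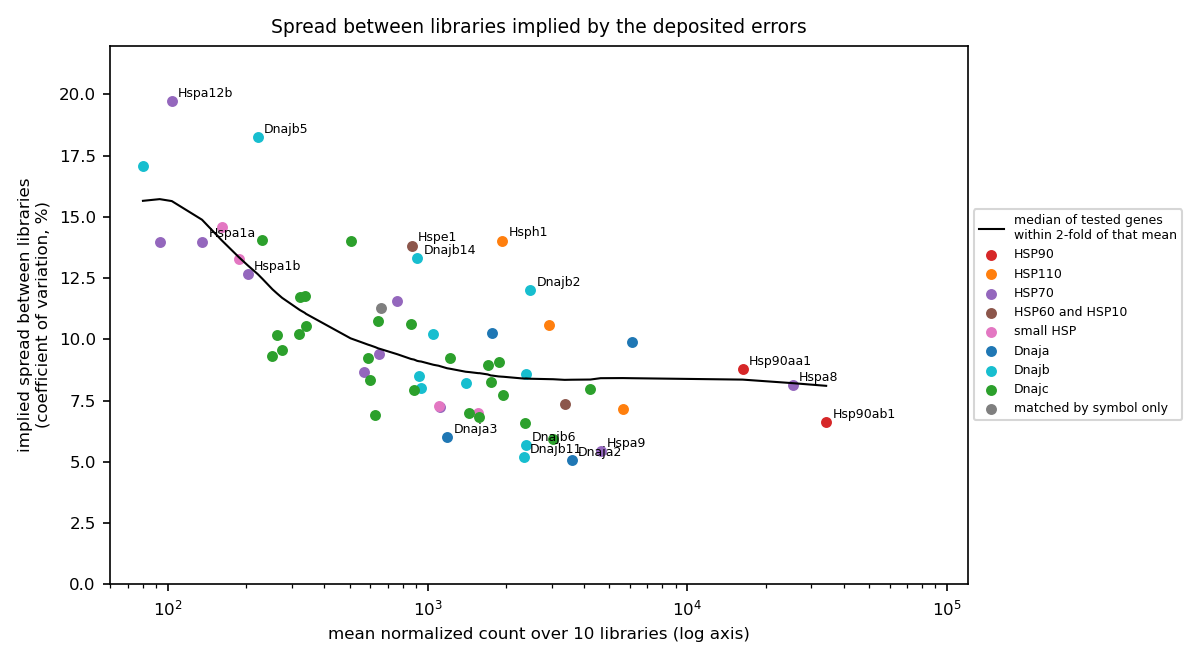
Spread between libraries beyond counting noise, implied by the deposited errors, as a coefficient of variation in percent, against mean normalized count (log axis). Points are tested members with a mean of at least 50, and the line is the median of tested genes of like mean. Hsph1, Hspe1, Dnajb14 and Dnajb2 lie above the line, and Dnaja2, Dnajb11, Hspa9 and Dnajb6 below it.

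Markers of cell types were set beside these values. Mature olfactory neuron markers had a median of -0.05, with 1 of 6 above 0, and none passed. With the length trend removed all 6 lay below 0. Macrophage markers had a median of -0.03, with 2 of 4 above 0, and none passed. Sustentacular cell markers had a median of -0.08, with 1 of 5 above 0, and 1 passed, Cbr2, lower by the authors' deposited table, with a log2 fold change of -0.26 (SE 0.07, adjusted p = 0.0421). Immature neuron markers had a median of 0.09, with 3 of 4 above 0, and 1 passed, Dpysl3, higher by the authors' deposited table, with a log2 fold change of 0.24 (SE 0.06, adjusted p = 0.0272). By new normal p-values with the length trend removed, neither Cbr2 (adjusted p = 0.306) nor Dpysl3 (adjusted p = 0.146) passed. Both tested erythroid markers fell by the authors' deposited table, to log2 fold changes of -0.46 (SE 0.10, adjusted p = 0.00337) for Alas2 and -0.27 (SE 0.06, adjusted p = 0.00509) for Slc4a1. Hba-a1 and Hbb-bs are listed at 0. By the new normal p-values with the length trend removed, Alas2 (adjusted p = 0.0232) and Slc4a1 (adjusted p = 0.00140) still passed. The part of these cell types in the members' values was not tested.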

How the data were processed

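Poly(A)-enriched RNA of 6 Apoe4 and 4 Apoe3 olfactory epithelia was read from both ends on a NovaSeq instrument, per the labels' protocols. The authors' tools were STAR, featureCounts and DESeq2 with GRCm38, per the submitters' processing notes, without versions or settings. Their deposited table holds 1 line of results for each gene. Its mean column is a signal, the authors' mean normalized count over the 10 libraries. The log2 fold changes and log2 standard errors were deposited on a shrunken scale. The deposited score is the Wald statistic, and the deposited p-values were adjusted by the authors over 16050 genes (Benjamini-Hochberg), with a mean of about 10 as the lower limit. Xist, at a mean of 5026, lies above that limit and still has no adjusted p.

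A count test needs values per library, which were not used here, so every test is the authors' except with the length trend removed. In that setting a curve of the deposited score on length was subtracted from the score. New p-values from the normal distribution were then adjusted (Benjamini-Hochberg) over the tested genes with a length. Direction was read from single-read genes: of 10 such mean levels 6 had positive folds and 4 negative ones, matching 6 Apoe4 and 4 Apoe3 libraries. The largest error, 0.105, gives the prior, and each error then allows 2 unshrunken errors; the smaller was used for genes with a mean of at least 20, unless it fell under counting noise. The fold needed to pass is 2 to the power of 3.56, the smallest absolute score called, times the unshrunken error. Depth limits precision as the errors show. Length was removed with a lowess curve (fraction 0.3) on log2 length of the longest GENCODE vM21 transcript, found for 96.6% of tested genes. Windows of 100 bases of that annotation were compared for shared sequence. Scripts used Python 3.11.15, pandas 2.3.3 and statsmodels 0.14.6, and were tested on simulated data.

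The members and lists were chosen with earlier results of these data known. Named in full were, per family, the 3 members with the smallest p and the 2 with the highest mean, and per other list the 3 with the smallest p. Hspa1a, Hspa1l and other members named with fewer values were chosen after their values were seen.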

Additional observations from a re-analysis of the deposited data

How the results depend on the processing

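The count of members past the threshold was 0 with no filter on the mean, with a mean of at least 100, without X and Y genes, with the length trend removed and with Benjamini-Yekutieli adjustment of the authors' DESeq2 p-values, and 10 at an unadjusted p under 0.05. In the first 4 of these settings the smallest adjusted p of a member ran from 0.120 to 0.218, in each case that of Hsp90ab1. The 0.120 came from the new normal p-values with the length trend removed, and not from the authors' test. The median log2 fold change of the members was between 0.01 and 0.03 in every alternative run, and that of the heat-inducible members between 0.08, without Hspa1a and Hspa1b, and 0.13, with the shrinkage undone. With the length trend removed, 3 of the named members took the other sign, Hspe1 at 0.054, Hspb1 at 0.024 and Dnajc5 at -0.0093, and the cause was not tested. Over all 65 tested members that setting changed the sign of 11 and moved 36 by over 1.5 times, sign changes included. A heat shock element of 2 units in place of 3 raised the share of member promoters with a match to 28.1%, which follows from its shorter length. No paired analysis was possible because values per library were not used here, and for the same reason no replicate could be left out. The errors limit what could be seen: Hspb2, Hspb7 and Dnajb7, with means under 20 normalized counts, needed an unshrunken fold of at least 3.17 to pass.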

Other observations

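Members were also sorted by level, a split chosen after the values were seen and given without a test. Of the 10 members with the highest mean normalized count, 9 had a fold above 0, with a median log2 fold change of 0.08 and Dnaja2 as the exception, and of the other 55 tested members 27 lay above 0, with a median of -0.01. With the length trend removed, 8 of the 10 and 27 of the 55 lay above 0. Among all genes tested with a mean of at least 1000, 54.8% of 4422 lay above 0, against 20 of 31 such members, or 64.5%, and 16 of the 31 with the trend removed.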
